A study of Mus musculus with 504 samples.

Results

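P15 is the sort gate for cells that were high for GFP, negative for mCherry and negative for EpCAM, and it was sorted from mammary tumours of 2 mouse lines. Both lines carried MMTV-PyMT, the polyoma middle T oncogene that gives rise to the tumours, with the recombinase MMTV-Flpo and the reporter RC::FrePe. They differed in the gene that drives the tamoxifen-dependent Cre, Cdh2-CreERT2 in one and Tnc-CreERT2 in the other. Flp, under the mammary MMTV promoter, turns on mCherry, and Cre then replaces it by GFP for good once tamoxifen is present. Tamoxifen was given to mice of both lines at 2 mg, 2 times weekly, from an age of 9 weeks until tumours were taken at 13 to 14. The 28 P15 libraries that passed quality control, of 335 in the series, were taken by their labels: 16 from the Cdh2 line (animals Cdh1624, Cdh1654 and Cdh1739) and 12 from the Tnc line (TENA2483, TENA2517 and TENA2524). Another 20 P15 libraries had failed, and with them 3 animals dropped out. Each library pools 5 cells, so a level is a mean over up to 5 cells that need not be alike. The growth label says that cells came straight from tumours, although the source label speaks of tumour cell lines.

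In an epithelial-to-mesenchymal transition (EMT) a cell gives up E-cadherin, keratins and EpCAM and takes on N-cadherin, vimentin and matrix proteins. Cdh2 encodes N-cadherin and stands in the study for a full EMT, and Tnc encodes the matrix protein tenascin C and stands for a partial one. The question put to P15 was how GFP-marked cells without surface EpCAM differ between the drivers. A permanent mark shows that a driver was active at some time after tamoxifen, not that it still is. Leukocytes are told from all these cells by the surface phosphatase CD45, the product of Ptprc, and among them the cells that present antigen to T cells carry MHC class II.

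By level, and with none past the test's threshold, P15 of the Tnc line stood higher in Ptprc and several other leukocyte genes, and P15 of the Cdh2 line in Sox10 and in several genes of secreted, matrix and contractile proteins. Promoters of MHC class II genes share a short element, the Y box, one of those through which the family is known to be switched on together. It is shown for the α chain gene H2-Aa and the β chain gene H2-Eb1, which no Cdh2-line library held above 4.41 CPM (counts per 1000000 counts), with the element (TGATTGG) in capitals. The stretches are from RefSeq, build GRCm38.p6, H2-Aa at chr17:34287824-34287973 on the minus strand and H2-Eb1 at chr17:34305717-34305866 on the plus strand, each the 150 bases before the gene's start.
H2-Aa: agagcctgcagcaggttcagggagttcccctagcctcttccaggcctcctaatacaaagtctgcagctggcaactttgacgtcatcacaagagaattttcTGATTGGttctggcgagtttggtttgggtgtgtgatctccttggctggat
H2-Eb1: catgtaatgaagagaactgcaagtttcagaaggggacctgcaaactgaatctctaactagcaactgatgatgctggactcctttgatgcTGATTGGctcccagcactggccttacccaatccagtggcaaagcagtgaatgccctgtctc
The element begins 50 bases before the start of H2-Aa and 61 before that of H2-Eb1. Of the 7 listed genes of the class II pathway, 4 had a promoter in the RefSeq table and 3 of these held TGATTGG on either strand within 250 bases before the start, where 7.23% of all 32851 promoters held it. That match describes the letters only.

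Totals per library ran from 453079 to 27849014 counts in the Cdh2 line and from 508631 to 7293999 in the Tnc line. Genes with 1 count or more per library had medians of 14414, 11817 and 9085 in the 3 Cdh2-line animals and of 8006, 7119 and 4169 in the 3 Tnc-line animals (11772 ± 2665 against 6431 ± 2009, SD, n = 3 each; exact two-sided permutation p = 0.1, the lowest that 3 against 3 can give). With every library thinned to 453079 counts the means were 9559 ± 2485 and 5387 ± 1141, again without overlap (exact permutation p = 0.1). All Cdh2-line libraries and the single library of TENA2524 ran on lane 2, and the 11 libraries of TENA2483 and TENA2517 on lane 1. Line and lane therefore cannot be told apart outside TENA2524, and that library is the only one of its animal. The ribosomal entry CT010467.1 and the overlapping lincRNAs Gm42418 and AY036118 took 11.6% to 55.6% of a Cdh2-line library and 34.6% to 56.2% of a Tnc-line library.

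**Figure D1:**
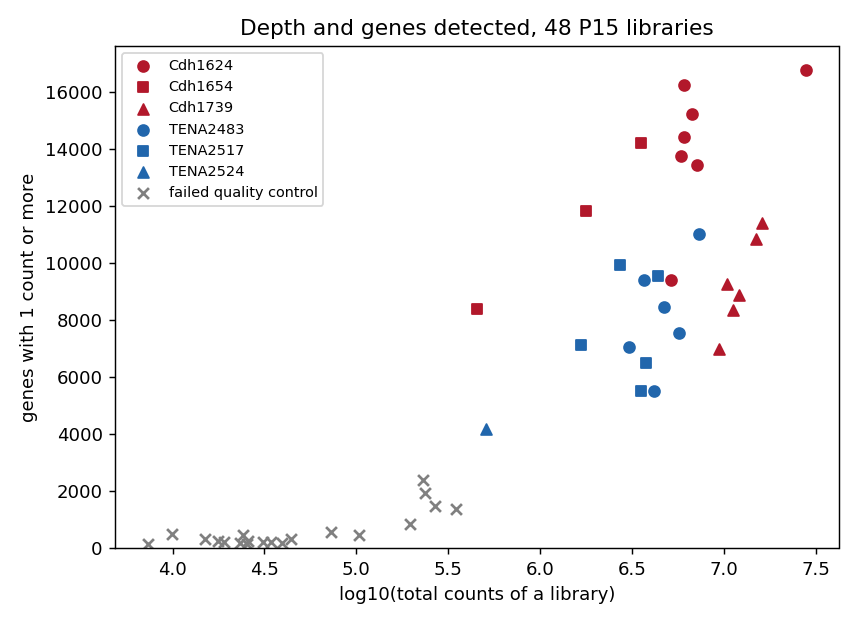
Genes with 1 count or more (y axis) against the log10 of total counts (x axis) for all 48 P15 libraries; red marks are Cdh2-line animals, blue marks Tnc-line animals and grey crosses libraries that failed quality control. The library of TENA2524, at 508631 counts and 4169 genes, is the lowest of those that passed in genes detected.

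Counts were summed per animal and the lines compared with edgeR's quasi-likelihood test, 3 sums against 3. No gene passed at an adjusted p below 0.05 (0 of 14028 tested, 0%), and the smallest adjusted p was 0.1188. At the common spread of these sums the same test also missed log2 changes of 3 and 6 put into simulated counts. The absence of calls therefore does not show that the lines were alike. Larger changes were not simulated. DESeq2 called 1643 genes on the same sums, and 299 were called by limma when each library had equal weight. At an unadjusted p below 0.05, 1344 genes were higher in the Cdh2 line (9.58%) and 141 lower (1.01%). All 3 Cdh2-line animals lay above all 3 Tnc-line animals for 3140 genes (22.4%) and below them for 293 (2.09%). Over all genes tested the log2 fold change, Cdh2 line minus Tnc line, had a median of 0.38. None of the genes below passed the edgeR threshold, and each value is given as measured. The level of an animal is the CPM of its sum, scaled by edgeR's TMM factor, and that of a single library is its CPM without a factor. A gene that had counts in one line only passed the filter through that line and had to differ, so counts of such genes describe the lines and test nothing. Whether a lower level means fewer cells of a type or less RNA per cell cannot be told apart in pools.

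The drivers themselves were first compared. Cdh2 (chromosome 18, 16588877 to 16809246) stood at 13.4, 39.9 and 33.2 CPM in Cdh1624, Cdh1654 and Cdh1739 and at 0, 3.24 and 0 in TENA2483, TENA2517 and TENA2524. The groups did not overlap, with a log2 fold change of 4.45 ± 2.16 (SE) and an adjusted p of 0.578 (edgeR). By library, Cdh2 reached 10 CPM in 10 of 16 pools of the Cdh2 line, spread over its 3 animals, and in 1 of 12 of the Tnc line (exact permutation p = 0.1 on the share per animal). Tnc (chromosome 4, 63959785 to 64047015) was found at 73.3 CPM in TENA2483 and at 0 in the other 2 Tnc-line animals, and at 0, 0.40 and 0 in the Cdh2 line. All of it lay in 1 pool, R3 of TENA2483, at 267 CPM, so 11 of 12 Tnc-line pools held no read of the gene that drives Cre in their line. No GFP, mCherry or Cre sequence was among the genes listed, so the mark itself was not checked in RNA.

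Epcam and keratin levels were checked against the EpCAM-negative gate. Epcam was at 9.61, 11.8 and 198 CPM in the Cdh2-line animals and at 17.3, 0 and 152 in the Tnc-line animals, and the groups overlapped (log2 fold change 0.39 ± 2.13, adjusted p = 0.999, edgeR). In EpCAM-high cells of the same 6 animals, the gate P18, it ranged from 336 to 5516 CPM. Krt8, a keratin of simple epithelia, had 3.54, 34.9 and 0 CPM in the Cdh2 line and 0, 0.07 and 0 in the Tnc line. It reached 10 CPM in 4 of 16 and 0 of 12 pools. Krt18, its partner keratin and the only keratin of that list to enter the test, went the other way, with 5.53, 6.96 and 0 CPM in the Cdh2 line and 23.1, 32.4 and 152 in the Tnc line. All Tnc-line animals lay above all Cdh2-line animals for it (-4.06 ± 2.14, adjusted p = 0.643, edgeR). Epcam, Krt8 and Krt18 were each lower in P15 than in P18 in all 6 animals. Transferrin, Trf, was found in both gates of the Cdh2 line, and its levels are given on the scale of a fit of both gates. In P15 it had 12440, 3842 and 1165 CPM in Cdh1624, Cdh1654 and Cdh1739, against 3291, 17210 and 6869 in P18. Trf was therefore higher in P15 than in P18 in Cdh1624 and lower in Cdh1654 and Cdh1739.

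Every P15 pool of the Tnc line held Ptprc, and no pool of the Cdh2 line held a read of it. Ptprc (chromosome 1, 138062861 to 138175708) had 160, 293 and 12.6 CPM in TENA2483, TENA2517 and TENA2524 against 0 in each Cdh2-line animal. Single pools of the Tnc line ran from 11.8 to 528 CPM with a median of 190 (12 of 12 at 10 CPM or more; 0 of 16 in the Cdh2 line; exact permutation p = 0.1 on the share per animal). The lowest, at 11.8 CPM, was the single pool of TENA2524, with 508631 counts in total. At a minimum of 50 CPM, 11 of 12 Tnc-line pools held Ptprc and that of TENA2524 did not (exact permutation p = 0.4). One empty well, 1 of 17, had 33 reads of Ptprc, more than the pool of TENA2524 had at 11.8 CPM of its 508631 counts. Ptprc of that pool thus lay within the range of an empty well. With 0 counts over the Cdh2 line, a floor of 3 counts over that line puts the pooled log2 ratio at -13.12 or lower. Such floors, and the intervals below, cover counting error only. P18 of the 6 animals held at most 0.26 CPM of it. The part of cells with these markers in the differences given below was not tested.

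Laptm5, a lysosomal membrane protein of blood cells, stood at 919 and 1486 CPM in TENA2483 and TENA2517 but at 4.22 in TENA2524, with 0 in the Cdh2 line (pooled log2 ratio -15.56 or lower). Of the 16 genes of the pan-leukocyte list 9 were tested: 8 were lower in the Cdh2 line and 1 higher, 3 of them (Ptprc, Laptm5 and Fcer1g) below in all animals, as 2.09% of all genes tested were, and the median log2 fold change was -7.30 beside 0.38 for all genes. None was called. Ptprc and Laptm5, without a count in the Cdh2 line, passed the filter through the Tnc line alone, so the count and median describe and test nothing. Summed over the list, levels were 126, 181 and 81.1 CPM in the Cdh2-line animals and 4441, 9342 and 2365 in the Tnc-line animals. Across all genes, and chosen after their values were seen, 17 reached 10 CPM in 10 or more of 12 Tnc-line pools and in none of 16 Cdh2-line pools. They include Ptprc, Laptm5, Cd52, Cd53, Rac2, Syk, Cybb, Il2rg, Fcgr2b, Cd83, Cd86 and H2-Aa, all known from leukocytes, and Bcl2a1b and Bcl2a1d, near-identical copies whose reads may be divided between them.

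**Figure D2:**
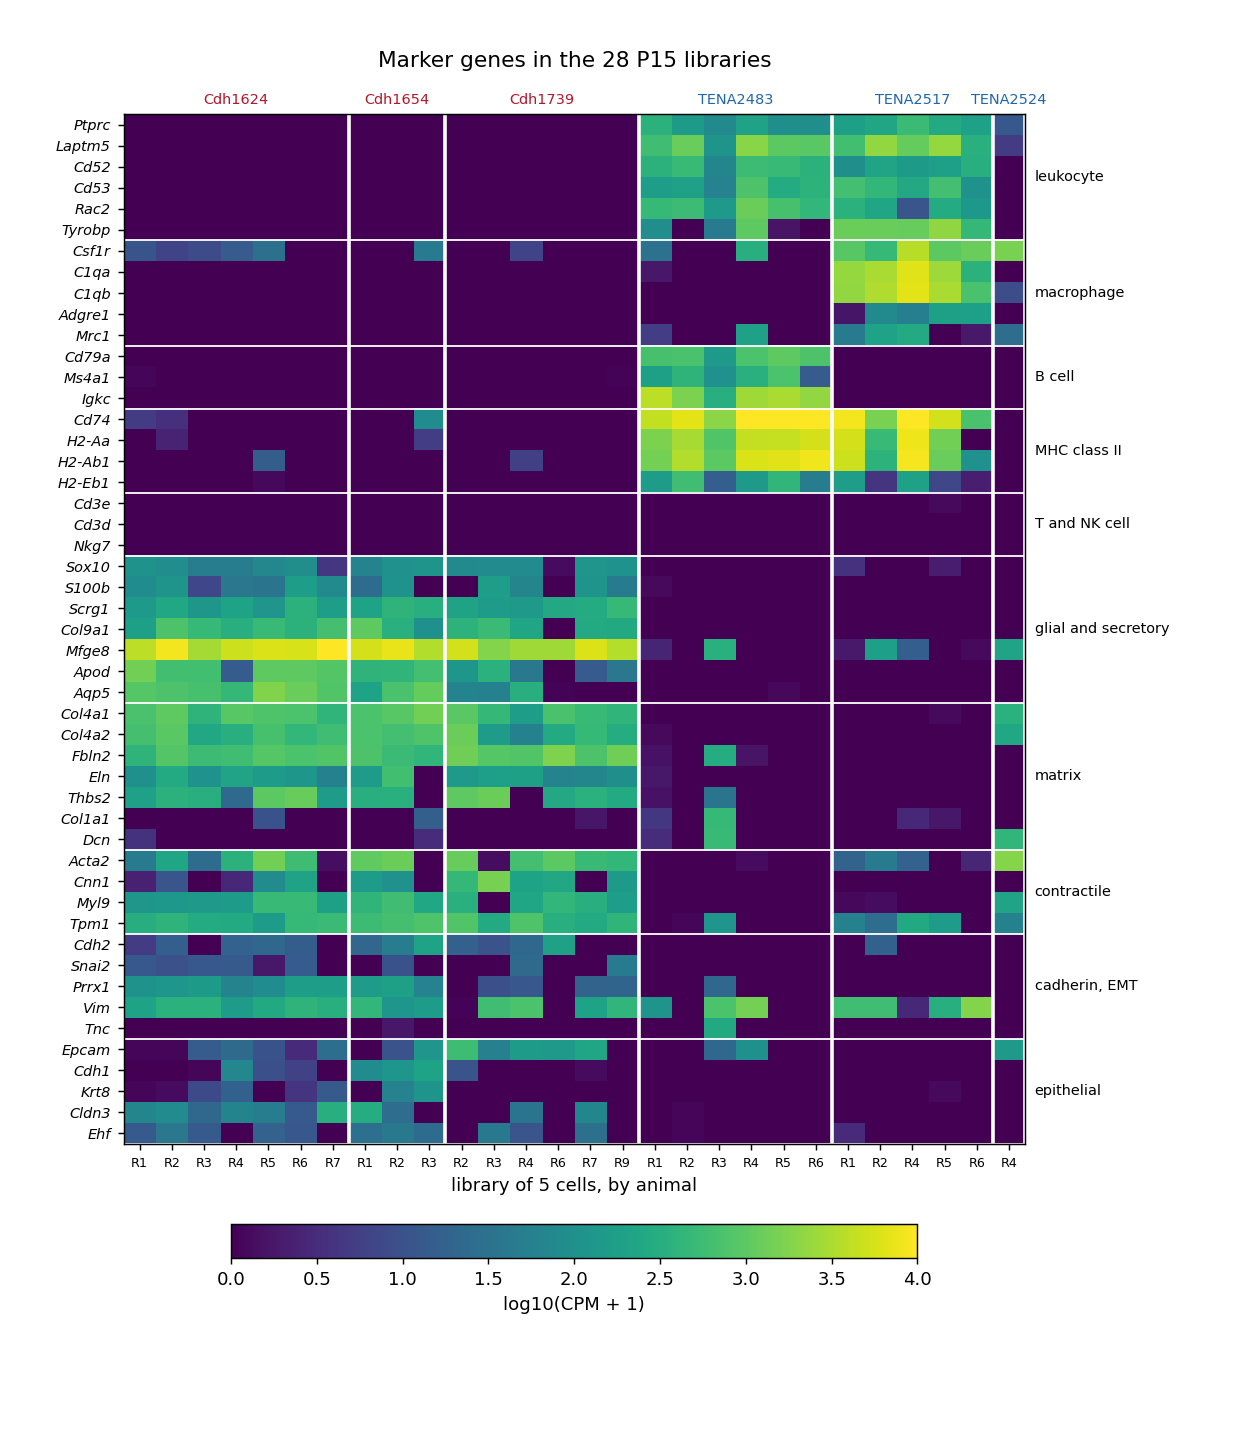
Level of 49 marker genes (rows, grouped by the names at right) in the 28 P15 libraries (columns, grouped by animal), as log10(CPM + 1) with a colour scale that ends at 4. The leukocyte rows are dark in all 16 Cdh2-line libraries and lit in most Tnc-line libraries, the B cell rows are lit only in TENA2483, and the glial and secretory rows are lit across the Cdh2 line.

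The 3 Tnc-line animals carried partly different leukocyte genes. Genes of B cells marked TENA2483: the B cell receptor subunit Cd79a had 667 CPM there and 0 in the other 5 animals, and each of the 6 pools held it, from 139 to 1020 CPM. The light chain constant gene Igkc stood at 2202 CPM and Ms4a1, which encodes CD20, at 310. Ighm, the heavy chain of IgM, was at 413 CPM in TENA2483 and also at 295 in TENA2517. With counts in so few sums these genes did not enter the test, and the pools with Cd79a came from 1 animal (exact permutation p = 1 on the share per animal).

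Genes of macrophages were high in TENA2517, some of them in the other Tnc-line animals too. The complement gene C1qa was at 2900 CPM there, in all 5 pools (368 to 6356), and at 0.11 CPM or less in the other 5 animals, and C1qb was at 3208. Csf1r (chromosome 18, 61100598 to 61132149), the receptor for the macrophage growth factor CSF1, was at 41.0, 1395 and 1697 CPM in TENA2483, TENA2517 and TENA2524 and at 15.7, 2.68 and 1.15 in the Cdh2 line. No Cdh2-line animal reached a Tnc-line animal for Csf1r (log2 fold change -7.35 ± 1.83, adjusted p = 0.119, edgeR), and within lane 2 alone, where only TENA2524 stands for the Tnc line, the value was -7.97. Fcer1g, a signalling subunit of Fc receptors, had 127, 1361 and 2336 CPM against 3.48, 0 and 0 (-10.09 ± 2.87, adjusted p = 0.130, edgeR). Apoe, a lipid carrier that macrophages make in quantity, reached 18972 and 13265 CPM in TENA2517 and TENA2524, but its 719 in TENA2483 was no higher than the 725 of Cdh1739 (-5.03 ± 1.37, adjusted p = 0.122, edgeR). Lyz2, the lysozyme of myeloid cells, was nearly as high in TENA2483 (1868 CPM, with 1 pool at 14100) as in TENA2517 (2242), and was at 2.11 in TENA2524 and at 1.03, 6.16 and 0 in the Cdh2 line. Cd14, a receptor for bacterial lipopolysaccharide, had 493, 2727 and 0 CPM in the Tnc line and 1.78, 5.22 and 923 in the Cdh2 line, so the lines overlapped for it. Inflammatory genes were also found in TENA2517, with the cytokine Il1b at 1576 CPM, 97.2 in TENA2483 and 0 in the other 4, and Siglech, a lectin of plasmacytoid dendritic cells, at 427 CPM from 2 of the 5 pools and 0 in the other 5 animals. The 10 macrophage-list genes tested, of 20, split into 8 lower and 2 higher in the Cdh2 line with a median of -5.49 log2 units. The 2 higher were Cd163 (5.86, 4.55 and 7.35 CPM against 0) and the phagocytic receptor Mertk (14.5, 48.4 and 21.9 against 0, 2.81 and 0).

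MHC class II transcripts were among the most abundant in TENA2483 and TENA2517 and missing from TENA2524. H2-Aa, whose promoter is shown above, had 3218 CPM in both TENA2483 and TENA2517, 0 in TENA2524 and at most 0.27 in a Cdh2-line animal. H2-Eb1 had 250 and 78.8 CPM in the same 2 animals, 0 in TENA2524 and at most 0.09 in the Cdh2 line. Neither entered the test. The partner chain H2-Ab1 stood at 4346, 3022 and 0 CPM against 5.91, 0 and 1.02 (-10.08 ± 3.09, adjusted p = 0.164, edgeR), and the invariant chain Cd74 at 8414, 7302 and 0 against 0.59, 5.35 and 0 (-11.46 ± 3.61, adjusted p = 0.182, edgeR). In both cases the lone lane 2 animal of the Tnc line was at 0, so the difference rests on the animals of lane 1 and does not hold within lane 2. All 5 class II pathway genes tested were lower in the Cdh2 line, none was called, none separated all animals, and their median was -5.23 log2 units.

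H2-Ab1 reached 10 CPM in 11 of the 12 Tnc-line pools and Ptprc in all 12, so each pool with H2-Ab1 had to hold Ptprc too. Cd79a was in all 6 pools of TENA2483, so the 2 pools with Csf1r and the 3 with Fcer1g in that animal had to hold it. Such joint counts test nothing. MHC class I, which most cells carry, differed less: B2m, its light chain, was at 819, 410 and 415 CPM against 949, 2708 and 4016 (-2.25 ± 0.85, adjusted p = 0.322, edgeR). Of the T cell receptor complex subunit Cd3e there was 1 read in all 28 libraries. Other genes of the T and NK cell list were present in the Tnc line. Lck, a kinase of T cells, stood at 126 CPM in TENA2483, where 4 pools reached 10 CPM (525 at most), and in TENA2517 the cytokine receptor Il7r was at 162 and Klrb1c, an NK cell receptor, at 30.1. Summed over that list, levels were 2.74, 0.67 and 0 CPM in the Cdh2 line and 128, 208 and 2.11 in the Tnc line. The other genes lower in the Cdh2 line by smallest p included Mrc1, the mannose receptor (22.6, 86.9 and 27.4 CPM against 0), Csf2rb2, a cytokine receptor subunit (33.1, 37.8 and 27.4 against 0), and the actin-binding Tmsb4x, which all 28 pools expressed (3471, 7159 and 1558 CPM against 185, 74.3 and 282; -4.54 ± 1.01, adjusted p = 0.119, edgeR). Tnfaip8l2, Klhl6, Pon3, Cyp4f18 and Gm42727 complete that group of 10 with Ptprc and Laptm5.

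**Figure D3:**
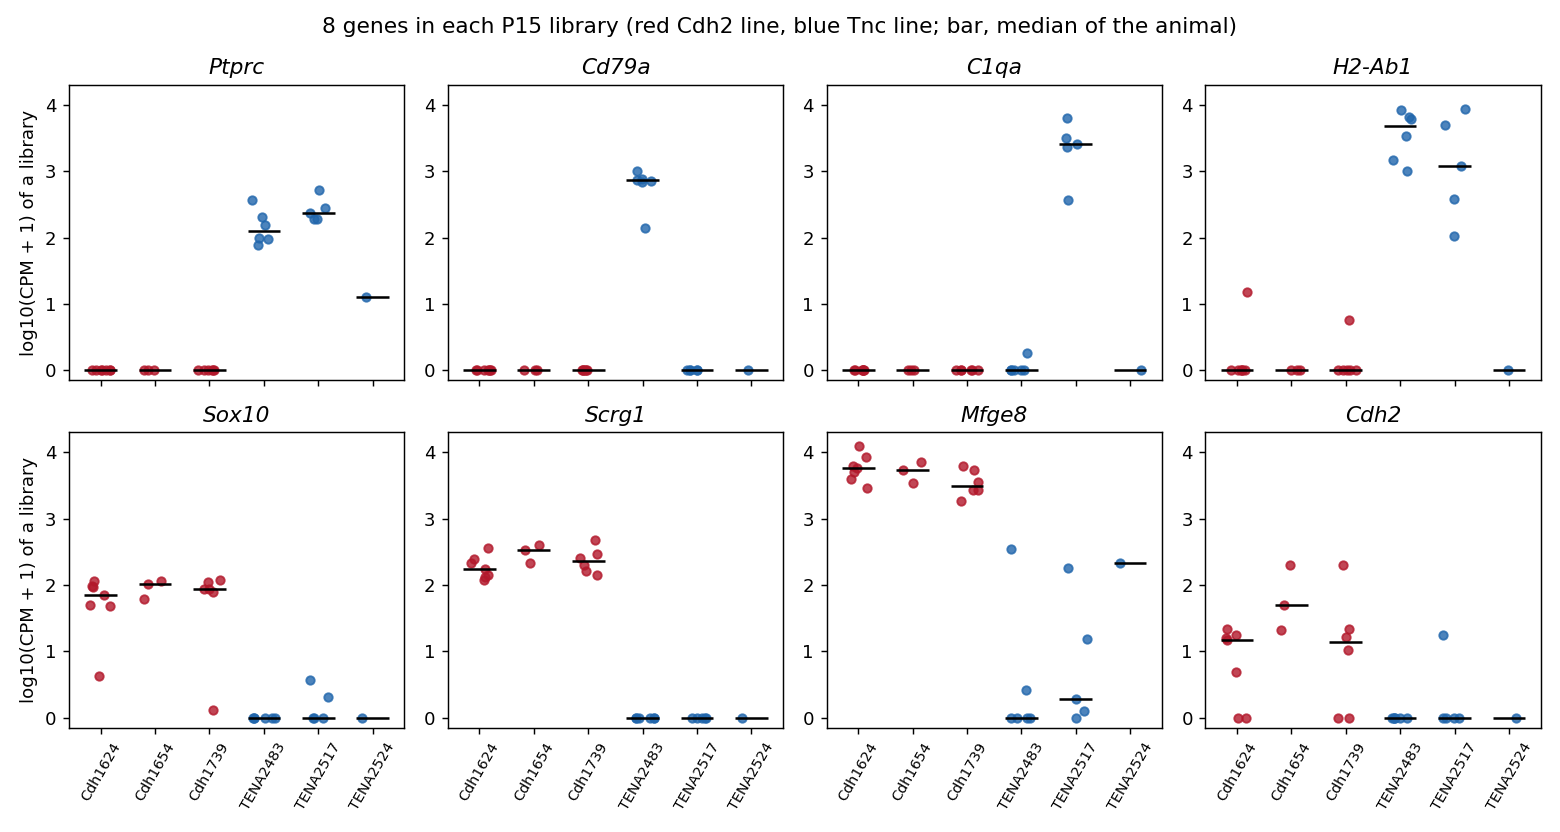
Level of 8 genes in each of the 28 P15 libraries as log10(CPM + 1), by animal (red Cdh2 line, blue Tnc line); points are spread sideways for visibility and bars are medians of an animal. Ptprc is above 0 in each blue point and Scrg1 in each red one, while Cd79a is confined to TENA2483 and C1qa reaches 10 CPM only in TENA2517.

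TENA2524 and 1 pool of TENA2483 also held genes of other kinds. The library of TENA2524 had Csf1r, Apoe and Fcer1g beside 90.6 CPM of the endothelial cadherin Cdh5, 9764 of Col18a1, a basement membrane collagen, and 2011 of the smooth muscle actin Acta2. R3 of TENA2483 held 483 CPM of Col1a1, 491 of Dcn, 42197 of Spp1, which encodes osteopontin, and 13007 of the collagenase Mmp13, together with Tnc, and it also held Cd79a at 139 and Ptprc at 76.9. Of the fibroblast list 5 of 15 genes were tested, and its summed level was 482, 384 and 633 CPM in the Cdh2 line and 1028, 225 and 502 in the Tnc line. Endothelial genes went both ways, 2 higher and 2 lower of 4 tested from a list of 15. Pecam1 was at 0.40 CPM or less in the Cdh2 line and at 7.51, 11.2 and 0 in the Tnc line. Eng, a TGF-beta co-receptor, stood at 51.9, 19.7 and 59.5 CPM in the Cdh2 line and at 0.56, 5.83 and 0 in the Tnc line (4.14 ± 1.67, adjusted p = 0.393, edgeR), and Ramp2, a receptor subunit, at 80.2, 43.0 and 79.6 against 37.1, 39.8 and 0. Pdgfrb, which marks pericytes and fibroblasts, stayed at 1.60 CPM or less in all 6 animals. Of the 10 genes on the pericyte list only Mcam, an adhesion molecule also found on other cells, entered the test, with 17.0, 58.1 and 56.9 CPM in the Cdh2 line and no read in the Tnc line (at least 9.24 log2 units higher).

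The P15 pools of the Cdh2 line shared a set of genes that those of the Tnc line lacked. Sox10 (chromosome 15, 79154908 to 79165240), a transcription factor of neural crest, glia and some glandular epithelia, had 67.1, 70.5 and 82.8 CPM in Cdh1624, Cdh1654 and Cdh1739 and 0, 1.15 and 0 in the Tnc line. It reached 10 CPM in 14 of 16 pools against 0 of 12 (log2 fold change 7.15 ± 2.05, adjusted p = 0.134, edgeR). S100b, a calcium-binding protein also known from glia, stood at 60.4, 59.7 and 68.4 CPM with 1 read in the whole Tnc line (pooled log2 ratio 11.54, 95% exact binomial interval 9.06 to 16.85). Scrg1 was found in all 16 pools, from 120 to 473 CPM, and in none of 12 (168, 263 and 244 CPM by animal; at least 11.67 log2 units higher). The 3 Cdh2-line animals lay close together for Sox10 and S100b.

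Of the 8 genes on the Schwann and neural crest list only Sox10 and S100b had the counts to enter the test. Erbb3, a neuregulin receptor on that list, was at 0.27 CPM or less in all 6 animals. Gfra3, also listed, went the other way, at 50.6 CPM in TENA2517, from 1 pool at 186 CPM, and at 0 in every other animal.

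Secreted proteins and a water channel were among the shared genes. Mfge8, a milk fat globule protein that bridges cells, was at 6096, 4961 and 3808 CPM against 94.6, 37.0 and 228 in the Tnc line, and the lowest Cdh2-line pool (1827) lay above the highest Tnc-line pool (344). Its log2 fold change was 5.36 ± 0.99 (adjusted p = 0.119, edgeR) and 4.50 in lane 2 alone. The water channel Aqp5, typical of secretory glands, stood at 1176, 459 and 89.4 CPM with 1 read in the Tnc line (pooled log2 ratio 14.74, interval 12.27 to 20.05). It reached 10 CPM in 13 of 16 pools, and single pools ran from 453 to 1726 CPM in Cdh1624, from 205 to 1119 in Cdh1654 and from 0 to 329 in Cdh1739. Apod, a lipid-binding secreted protein, had 848, 330 and 90.3 CPM and no read in the Tnc line (at least 12.73 log2 units higher).

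The 10 genes with the smallest p in this direction were Scrg1, Smr2, Aqp5, Clca3a2, Col9a1, Eln, Il33, G0s2, Mmp16 and Pgp. Besides those already given, Il33, an alarmin cytokine, had 155, 82.2 and 309 CPM, and Smr2, a secreted peptide, had 217, 333 and 297. Both had 2 reads or fewer over the Tnc line, and so did Clca3a2 (1014, 222 and 188 CPM), though reads of the Clca3 copies may be shared. Over all genes, and again chosen after their values were seen, 50 reached 10 CPM in 14 or more Cdh2-line pools and in no Tnc-line pool, 5 of them (Anpep, Klhl13, Ltbp1, Plekhb1 and Scrg1) in all 16. Plekhb1 stood at 82.7, 173 and 441 CPM and Klhl13 at 62.7, 46.2 and 116, both without a read in the Tnc line. Anpep, an aminopeptidase, had 205, 68.5 and 41.4 CPM against 0.04, 0 and 10.5. The transcription factor Tfap2b, in 15 of 16 pools, had 56.3, 52.5 and 109 CPM against 1.88, 0 and 0 (log2 fold change 6.47 ± 1.99, adjusted p = 0.169, edgeR). By comparison 384 genes of 16819 reached 10 CPM in all 28.

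Matrix genes differed among themselves. Some reached 10 CPM in 15 or 16 of the 16 Cdh2-line pools, among them Col4a1, a basement membrane collagen, at 718, 697 and 505 CPM, Fbln2, a fibulin, at 728, 453 and 1081, Eln, which encodes elastin, at 152, 330 and 125, and Col9a1, a cartilage collagen, at 472, 411 and 285. Other genes of basement membranes and elastic fibres were patchier: Fbn1 reached 10 CPM in 9 of 16 pools, Col18a1 in 7, Nid1 in 3 and Col15a1, Mfap4 and Mfap5 in 0. In the Tnc line Col9a1 had no read, Eln had 3, Fbln2 was at 82.9, 0 and 0, and Col4a1 at 0, 0.07 and 379, the last in TENA2524. Pooled, Col9a1 was at least 12.50 log2 units higher in the Cdh2 line, while Col4a1 (2.35 ± 2.52, adjusted p = 0.956, edgeR) and Fbln2 (4.70 ± 2.32, adjusted p = 0.588) depended on which Tnc-line animal was considered.

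Col1a1, a fibrillar collagen of fibroblasts, stood at 3.85, 0.94 and 0.15 CPM in the Cdh2 line and at 133, 0.43 and 0 in the Tnc line (-4.79 ± 2.54, adjusted p = 0.652, edgeR), and without R3 of TENA2483 its fold change was 1.78 in the other direction. Thbs2, a matrix glycoprotein, had 637, 245 and 498 CPM against 9.20, 0 and 0 (7.02 ± 2.11, adjusted p = 0.156, edgeR). Ltbp1, which holds latent TGF-beta in the matrix, had 338, 250 and 324 against 1.16, 0 and 0, and the ligand Tgfb2 had 107, 67.2 and 25.1 against 0.60, 0.07 and 0. Of 31 genes on the collagen and matrix list 20 were tested, 11 higher and 9 lower in the Cdh2 line, 8 of them above in all animals and none below, where 22.4% and 2.09% of all genes tested were so placed, with a median of 1.69 beside 0.38 for all genes and none called.

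Contractile genes were unevenly present in the Cdh2 line. Tagln, which encodes transgelin, stayed at 1.70 CPM or less in each pool of Cdh1739 and reached 655 CPM in the pool of TENA2524. Of the 12 listed genes, 1 had no count in the Cdh2 line, while Acta2, Cnn1 and Tpm1 were found in all animals of that line. Acta2 had 716, 862 and 610 CPM there and 0.04, 17.0 and 2011 in the Tnc line, so that the lone library of TENA2524 exceeded every Cdh2-line animal (0.11 ± 2.14, adjusted p = 0.999, edgeR), and the sign was the opposite with RLE size factors (-0.12). Cnn1, the calponin of smooth muscle and myoepithelium, stood at 57.0, 86.8 and 396 CPM against 0 in all 3 (at least 11.79 log2 units higher). Tpm1, a tropomyosin, was at 281, 492 and 499 CPM against 32.8, 96.5 and 61.1 (2.70 ± 0.88, adjusted p = 0.199, edgeR). Of the 12 contractile genes 11 were tested, 9 higher and 2 lower, with 4 above in all animals (22.4% of all genes tested) and a median of 2.12 beside 0.38 for all genes. Sox10 reached 10 CPM in 14 of the 16 pools, Acta2 in 13 and both in 12, an overlap that such high shares largely force.

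Transcription factors of the EMT list differed widely in level. Zeb1 reached 10 CPM in 12 of 16 Cdh2-line and 1 of 12 Tnc-line pools. Tcf4 did so in 14 and 6, without a clear difference by animal (0.12 ± 1.49, adjusted p = 0.999, edgeR). Snai1 had 6.89, 7.76 and 33.0 CPM in the Cdh2 line and 3 reads in the Tnc line (pooled log2 ratio 8.28, interval 6.73 to 10.56). Snai2 was at 5.93, 4.42 and 11.4 CPM and Twist1 at 5.80, 4.28 and 4.95, both with no read in the Tnc line. Prrx1 stood at 110, 129 and 9.85 CPM against 5.67, 0 and 0 (5.21 ± 2.17, adjusted p = 0.429, edgeR), and Sox9 reached 1360 CPM in Cdh1739 but 91.2 and 92.3 in the other 2 animals, and 151, 0 and 0 in the Tnc line. Zeb2, which macrophages also express, went the other way (4.11, 0.13 and 0.08 CPM against 16.0, 95.3 and 0; -4.74 ± 2.39, adjusted p = 0.602, edgeR). Of 14 such factors 10 were tested, 9 of them higher in the Cdh2 line and 4 above in all animals (22.4% of all genes tested), with a median of 2.22 beside 0.38.

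Vim, the intermediate filament gene used as a mesenchymal marker, did not separate the lines: 282, 173 and 349 CPM against 383, 849 and 0 (-0.68 ± 1.61, adjusted p = 0.999, edgeR), with 14 of 16 and 7 of 12 pools at 10 CPM or more (exact permutation p = 0.2 on the share per animal). Leukocytes also express Vim, and which cells of a pool supplied it was not tested. By sign the mesenchymal list split into 10 higher and 11 lower of 21 tested, with a median of -0.13 beside 0.38. In all animals 6 were above and 1 below, where 22.4% and 2.09% of all genes tested were so placed.

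Some epithelial genes were detected in the Cdh2 line with 1 read or none in the Tnc line. Cdh1, which encodes E-cadherin, had 10.2, 93.1 and 1.67 CPM against 0 in each Tnc-line animal (at least 7.29 log2 units higher; 4 of 16 pools at 10 CPM or more). The tight junction gene Cldn3 stood at 68.0, 82.3 and 21.0 CPM with 1 read in the Tnc line, and the surface protein Prom1 at 37.0, 23.6 and 34.0 with none. Of 28 genes on the epithelial junction and surface list 14 were tested, 10 higher and 4 lower in the Cdh2 line, 7 above in all animals (22.4% of all genes tested), with a median of 3.80 beside 0.38. Luminal genes were higher too by level, Gata3 with 193, 343 and 264 CPM against 28.9, 5.39 and 97.0 (2.62 ± 1.14, adjusted p = 0.477, edgeR). Lcn2, a secreted lipocalin, had 1281, 194 and 158 CPM against 50.0, 0.58 and 120, and the milk protein gene Csn3 had 336, 239 and 81.0 against 40.9, 0.07 and 0. Of the 18 luminal and milk genes 9 were tested, 8 higher and 1 lower, 5 above in all animals, with a median of 3.26, beside the same 22.4% and 0.38. Trf, transferrin, varied widely within the Cdh2 line (13430, 4098 and 1146 CPM) and overlapped the Tnc line (57.5, 689 and 2420). Its reads and those of the overlapping entry Gm20425 cannot be separated.

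**Figure D4:**
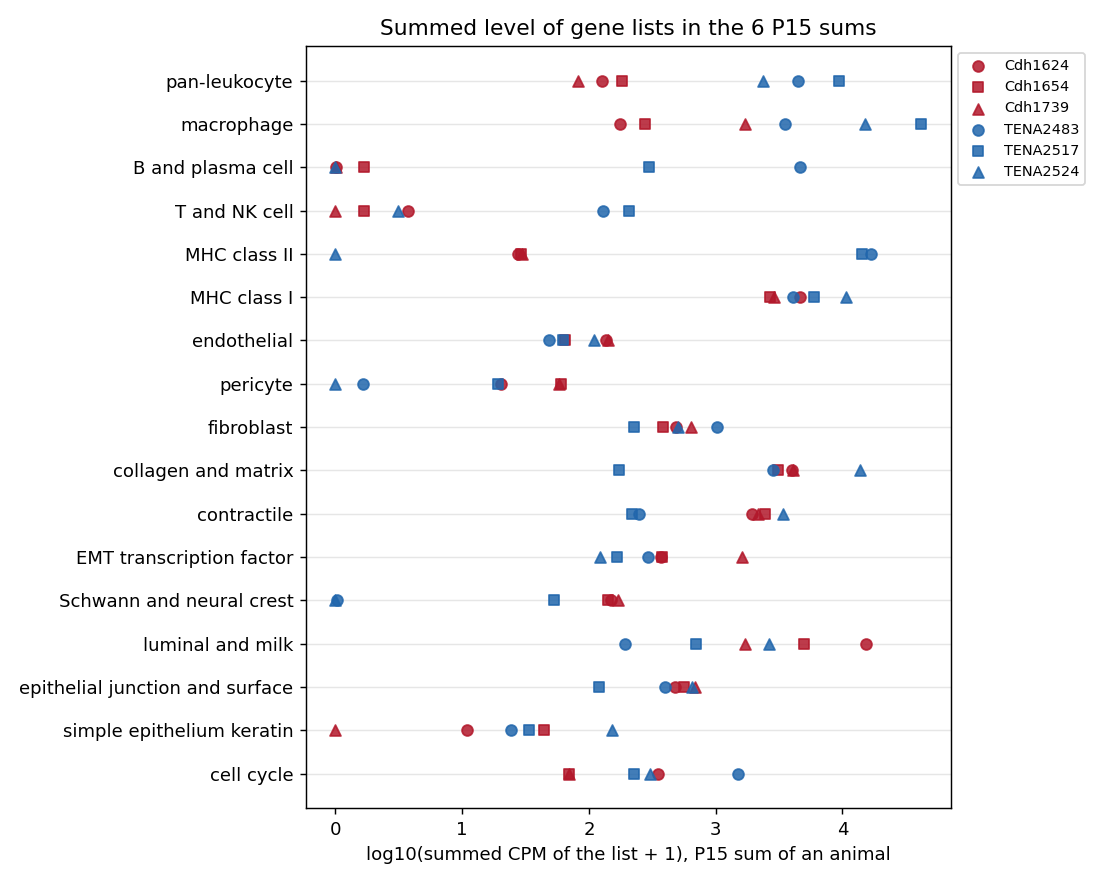
Summed CPM of the members of 17 gene lists, as log10(sum + 1), in the P15 sum of each animal (red Cdh2 line, blue Tnc line). The pan-leukocyte and macrophage lists place all blue marks to the right of all red ones, the Schwann, pericyte and EMT transcription factor lists place all red marks to the right, and the remaining 12 lists mix the lines.

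Genes of cell division and of the interferon response came next. Mki67, a marker of dividing cells, stood at 16.7, 0.27 and 0 CPM against 31.3, 20.1 and 0 (-1.67 ± 2.48, adjusted p = 0.983, edgeR), and 16 of 18 cell cycle genes tested were lower in the Cdh2 line, none past the threshold and none below in all animals, with a median of -1.69 beside 0.38. Of 11 interferon response genes tested, 7 were higher and 4 lower in the Cdh2 line, 5 above in all animals (22.4% of all genes tested), among them Isg15 with 27.3, 14.2 and 15.5 CPM against no read in the Tnc line. The X-inactivation RNA Xist was found in all 28 pools, with 234, 258 and 130 CPM against 122, 423 and 80.1.

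P18 of the same 6 animals, split over the lanes in the same way, was used to ask whether the lines differ more in P15 than in the mCherry-high, EpCAM-high cells. In a joint fit of 12 sums with the animal as a block, no gene passed (0 of 19881 tested, 0%; smallest adjusted p = 0.0955, edgeR; 1205 genes at an unadjusted p below 0.05), while DESeq2 called 981. Levels in P18 are on the scale of that joint fit. Sox10 was present in P18 of both lines, at 14.0, 58.7 and 49.4 CPM in the Cdh2 line and at 57.9, 43.6 and 52.0 in the Tnc line, so the line that lacked it in P15 had it in P18. Aqp5 behaved alike, at 829 to 1600 CPM in P18 of the Cdh2 line and 530 to 1093 in that of the Tnc line. Its difference of differences, P15 minus P18, was 13.65 ± 2.25 log2 units, the smallest adjusted p. Mfge8 was lower in P18 of the Cdh2 line (161, 632 and 208 CPM) than of the Tnc line (880, 1090 and 1216), the opposite of P15 (7.57 ± 1.42, adjusted p = 0.108, edgeR).

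A second group of genes was near 0 in P18 of both lines and found in P15 of the Cdh2 line. Apod had at most 1.23 CPM in any P18 sum, Il33 at most 2.19, Cnn1 at most 2.19 and Cdh2 at most 0.68. P18 of Cdh1624 rests on 2 libraries with 879259 counts together, and its Epcam (336 CPM) was the lowest of the 6. Without the animal block 14 genes were called, all shifted in P15 towards the Cdh2 line, among them Aqp5, Col9a1, Il33, Clca3a2, Cldn3 and Mfge8.

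**Figure D5:**
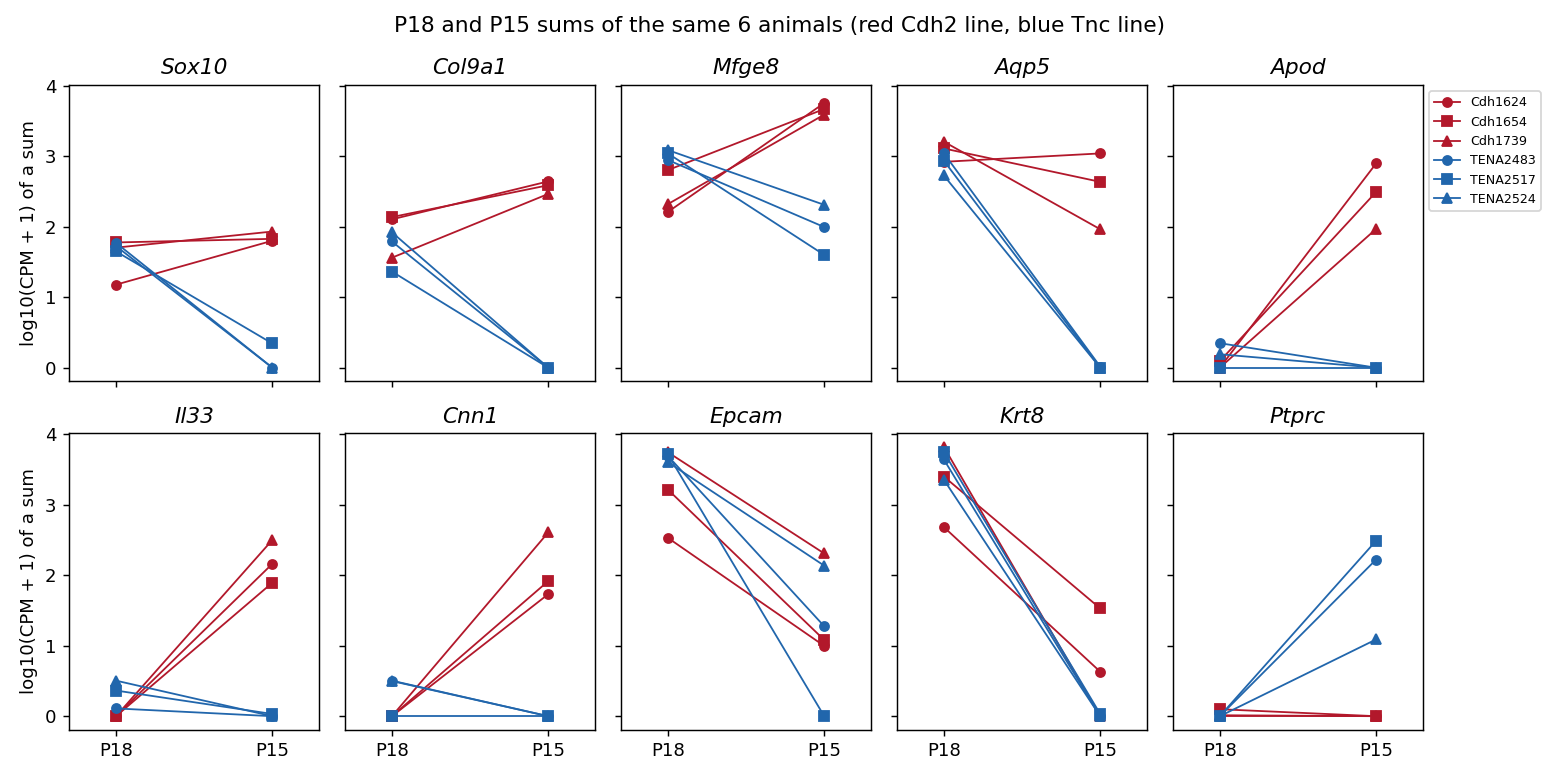
Levels of 10 genes in P18 and P15 of the same 6 animals as log10(CPM + 1) on the scale of the joint fit; each line joins the sums of 1 animal (red Cdh2 line, blue Tnc line). Sox10, Col9a1 and Aqp5 start together in P18 and part in P15, where the Tnc line is at 1.21 CPM or less, and Ptprc exceeds 0.26 CPM only in P15 of the Tnc line.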

How the data were processed

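The values deposited by the authors are raw counts per gene: they are whole numbers whose totals differ between columns. Per the submitters' processing notes the authors used STAR, SAMtools, featureCounts and Subread with mm10; their versions, settings and the strand of counting were not given in the sources used here, so reads of overlapping genes may be shared. Libraries were made from 5-cell pools by Smart-seq2, without molecular identifiers. All 55450 genes were matched to GENCODE M21, and 0 columns were left unmapped. No P15 library duplicated another.

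Counts of the 28 P15 libraries that passed (453079 to 27849014 each) were summed per animal, 508631 to 74118505 per sum, and fitted in edgeR 4.0.16 (R 4.3.3; TMM factors 0.8651 to 1.292, filterByExpr by line, robust quasi-likelihood F test, Benjamini-Hochberg adjustment over all genes tested). The interaction with P18 used 12 sums with the animal as a block. Fold changes are Cdh2 line minus Tnc line, with SE from the F statistic. A line with 0 counts was set to 3 counts for a bound, and with 1 to 3 counts a pooled log2 ratio with a 95% exact binomial interval is given, both without TMM factors. Shares of libraries at 10 CPM or more were compared by exact permutation over the 6 animals for a panel of 14 genes. The p-values measure the spread between the sums of these animals. That spread also holds differences in depth and in the number of pools, 1 in TENA2524 and 7 in Cdh1624.

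Named genes are the 10 with the smallest p in each direction (none was called), the 3 most abundant members of each list, a fixed panel with Xist and the 10 most abundant genes of a line, plus members of the 33 lists and others said to be chosen after seeing values. The members and lists were chosen with earlier results of these data known. The fit was checked on simulated counts with log2 changes of 3 or 6, and larger changes were not tried. It found the changed genes at a low dispersion. At the common dispersion of the P15 sums, given to every gene, it found none of them. Alternatives used DESeq2 1.42.0, limma 3.58.1 (equal weight of libraries), RLE factors, other filters, lane, depth, quality and left-out animals or libraries. Promoters are from RefSeq.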

Additional observations from a re-analysis of the deposited data

Results flagged for a closer look

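Lone values were looked for among the libraries of an animal, by the gap of the highest or lowest library to the next relative to the animal's range. Of 39 groups of libraries tested, 14 lone values appeared. Chance flags about 1 group in 20 of normally spread values, but that rate does not apply here, because many pools were at 0 CPM. For 4 of the 14 (Csf1r of Cdh1739, Tnc and Acta2 of TENA2483, Cdh2 of TENA2517) every other pool of the animal was at 0 CPM, so the gap was the whole range. In Cdh1624 they were the highest total (27849014 counts) and the highest Acta2 (1424 CPM), and in Cdh1739 the highest Csf1r (5.34 CPM), the lowest Sox10 (0.32) and the highest Cdh2 (196.92). The last 2 belong to the same pool, R6 of Cdh1739, which also had no read of Col9a1 or Vim. In TENA2483 the highest values of Csf1r (321.1 CPM), Mfge8 (344.39), Tnc (267.48), Acta2 (0.33) and Epcam (100.49) stood alone, with Mfge8 and Tnc in the pool R3 that held Col1a1 and Mmp13. In TENA2517 those of Ptprc (527.69 CPM), Csf1r (3660.18), Mfge8 (179.35) and Cdh2 (16.64) did.

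The 20 P15 libraries that failed quality control took no part in the comparison. Of the 11 of the Tnc line, 2 held 10 or more reads of Ptprc (63 at most), 4 of Csf1r (1271 at most) and 4 of C1qa (114 at most). None of the 9 failed libraries of the Cdh2 line held a read of these 3 genes. Among 17 empty wells 1 had 33 reads of Ptprc, and the highest counts of Csf1r and C1qa were 2 and 1.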

How the results depend on the processing

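The lack of called genes in P15 held with RLE factors, a minimum of 50 counts, each animal left out, lane as a term, lane 2 alone, thinned libraries, all libraries whatever their quality label and libraries of at least 1000000 counts. It also held under 3 alternatives chosen after seeing the data, without R5 of Cdh1624, R3 of TENA2483 or the 3 abundant entries. DESeq2 called 1643 genes (1255 higher, 388 lower), the fit with no filter on low counts 73 (34 and 39) and limma with equal weight of libraries 299 (294 and 5). For the interaction, DESeq2 called 981, no filter 28 and no animal block 14, and the counts without 1 animal ran from 0 to 19; the cause was not tested. No paired analysis was possible because replicate numbers in the labels count the libraries of 1 animal, and the animals of the lines are different mice. The median of all genes moved from 0.38 to 1.10 with equal weight, 10.17 with lane as a term and 9.24 in lane 2 alone, where TENA2524 is the only Tnc-line sum, and to 1.03 and 0.90 without TENA2483 and TENA2517.

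Signs turned, with the cause not tested, for these log2 fold changes. With RLE factors Acta2 was -0.12 and Xist 0.035, with DESeq2 -0.11 and 0.034, with thinned libraries Acta2 -0.54, without R5 of Cdh1624 Acta2 -0.18, without R3 of TENA2483 Col1a1 1.78, and with equal weight Vim 3.13 and Xist 0.48. Without 1 animal, Epcam ranged from -2.29 to 2.97, Acta2 from -0.47 to 6.39, Col1a1 from -6.51 to 2.21, Vim from -1.26 to 0.36 and Xist from -0.44 to 1.01. With lane as a term they were Epcam -1.05, Vim 16.04, Acta2 -1.46, Zeb1 -0.49, Zeb2 8.53, Col1a1 8.71, Mki67 10.48, Cd74 8.89, H2-Ab1 9.22, Lyz2 0.13, Pecam1 5.84 and Xist 1.37. In lane 2 alone they were -0.999, 16.29, -1.41, -0.44, 8.75, 8.94, 10.72, 9.22, 9.43, 0.24, 6.13 and 1.43 in the same order. The share of libraries with Col1a1 per animal, Cdh2 line minus Tnc line, turned to -1.90 percentage points at 1 CPM and -5.56 at 50 CPM, and that with Pdgfrb to -7.46 at 1 CPM. No sign of the 68 genes followed turned without Cdh1624, Cdh1654 or TENA2524, with no filter or with libraries of at least 1000000 counts. None turned either among the 54 of them that had a value with a minimum of 50 counts, the 35 with all libraries and the 67 without the 3 abundant entries. Depth limits TENA2524 most, whose 508631 counts come from 5 cells.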
